A study of Glycine max with 18 samples.

Results

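MYB transcription factors of the developing soybean seed were followed across 8 laser-captured seed compartments and whole seed. Members were chosen by name: a soybean probe set had to carry exactly 1 gene in the array's probe table, with a symbol or synonym made of MYB or GmMYB and a number. MYB11, MYB73, MYB172 and MYB184 were left out by the rule, being set apart as MYB factors high in hilum. Of 66 genes found by name on 100 probe sets, 52 had a probe set that reached a signal of 100 on 2 or more of the 18 arrays and were kept. They stand among 5703 genes with 1 symbol and a probe set that passed the same filter. Where a gene had several such probe sets, as 13 did, the one with the highest mean log2 signal was read.

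The samples were cotyledon-stage seeds of soybean (Glycine max) cultivar Asgrow A3237, 2.5 to 3.0 mm long, with no mutant, transgene or treatment in any group. Each of 9 groups had 2 arrays: embryo proper, suspensor (the stalk that anchors the embryo), endosperm, whole seed, and 5 seed coat captures, which were epidermis, hilum, outer integument, inner integument and endothelium. Captures came from paraffin sections of fixed seeds, and how many seeds or plants an array stands for is not given in the sources used here. RNA of the captures was extracted with 1 kit and that of whole seed with another reagent, so tissue and extraction cannot be told apart in comparisons with whole seed.

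MYB proteins bind DNA through a domain of helix-turn-helix repeats and switch target genes on or off. In plants the largest group carries paired repeats, and its members are known for control of flavonoid and phenylpropanoid synthesis, cell shape, cell walls and responses to stress, while proteins with a single repeat include the LHY and CCA1 family of the circadian clock. In seeds, MYB factors are best known as regulators of pigment and proanthocyanidin in the seed coat. Numbers of soybean MYB genes do not match those of Arabidopsis, so no role is carried over by number here.

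Signals are linear intensities, scaled by the authors so that the trimmed mean was the same on every array. The 95th percentile of probe sets for other organisms is called the background level here, and it ran from 105.9 to 216.1 over the arrays. On array 2 of epidermis and array 1 of inner and of outer integument it was 213.5, 207.3 and 197.5, against 134.5, 135.0 and 152.5 on their partners, and these 3 are called the arrays of raised background. The highest level of all was that of hilum array 2 (216.1), with 184.7 on hilum array 1, so hilum was high on both arrays and is not covered by leaving out those 3. Group means are geometric, with signals under 50 set to 50, and a fold is a ratio of such means. The tests are moderated contrasts of limma over 31961 soybean probe sets with Benjamini-Hochberg adjustment, and a gene is said to be called at an adjusted p under 0.05. In 76 of the 161 calls of a MYB gene the lower side averaged under the background level. For 65 of the 76 the higher side still exceeded the lower side once that was raised to the background level. For the rest it did not. Folds written as at least have the lower side's signals under the background level raised to it. The wording allows for background and not for the spread between arrays, so a fit without 1 array can give a smaller fold. Log2 differences and p-values come from the fit with the floor of 50. Transcription factors used as markers of embryo proper and of seed coat were highest there, and none of the markers used defines suspensor or endosperm. The embryo factor LOC100500091 (YABBY11) had 4741 and 6123 in embryo proper and at most 90.8 on any array of another compartment, and the seed coat MADS-box gene AGL1L had 9790 to 21574 on the 10 seed coat arrays against at most 261.6 elsewhere in the captures. ANR1, the anthocyanidin reductase gene listed as an endothelium marker, went against that label, with 133.9 and 502.6 in endothelium against 39338 and 39278 in hilum. The seed coat peroxidase gene Ep had 4450 and 3493 in whole seed and at most 520.4 in any capture. CAB3, RCA14, KTI3 and KTI-3 were also highest in embryo proper, though RCA14 overlapped inner integument (6050 and 5143 against 5166 and 4598). KTI-3 had 4761 and 5404 in embryo proper and 3842.5 and 4484 in outer integument. CAB3 had 20178 and 20247 in outer integument, against 35786 and 38522. PRP1, PRP3, PRX2 and PRX2B were highest in a seed coat part. PRP2 was not, with 9175 and 7068 in suspensor and at most 1170 on any seed coat array.

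Over the 8 compartments, 29 of the 52 MYB genes differed by the F test, or 55.8%, against 56.9% of all tested probe sets. Their median range from lowest to highest compartment was 1.77 on the log2 scale, against 1.73 for all probe sets tested. As a group, these 52 MYB genes were therefore about as compartment-dependent as the array as a whole. The 4 MYB genes left out by the rule, with ranges of 4.13 to 7.75 on the log2 scale, are not part of these figures. By this measure 38 of them stood above the background level on both arrays of at least 1 compartment, 13 in all 8 and 25 in 1 to 7. The other 14 (MYB85, MYB99, MYB114, MYB127, MYB142, MYB145, MYB149, MYB150, MYB160, MYB164, MYB177, MYB178, MYB179 and MYB186) did so in none. These counts over background were not made for all tested probe sets, so they describe the MYB genes alone. Close to the limit of the filter, MYB160 and MYB99 were kept with second-highest signals of 102.7 and 111.7, and MYB118 and MYB98 were not, with 95.7 and 94.0.

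**Figure D1:**
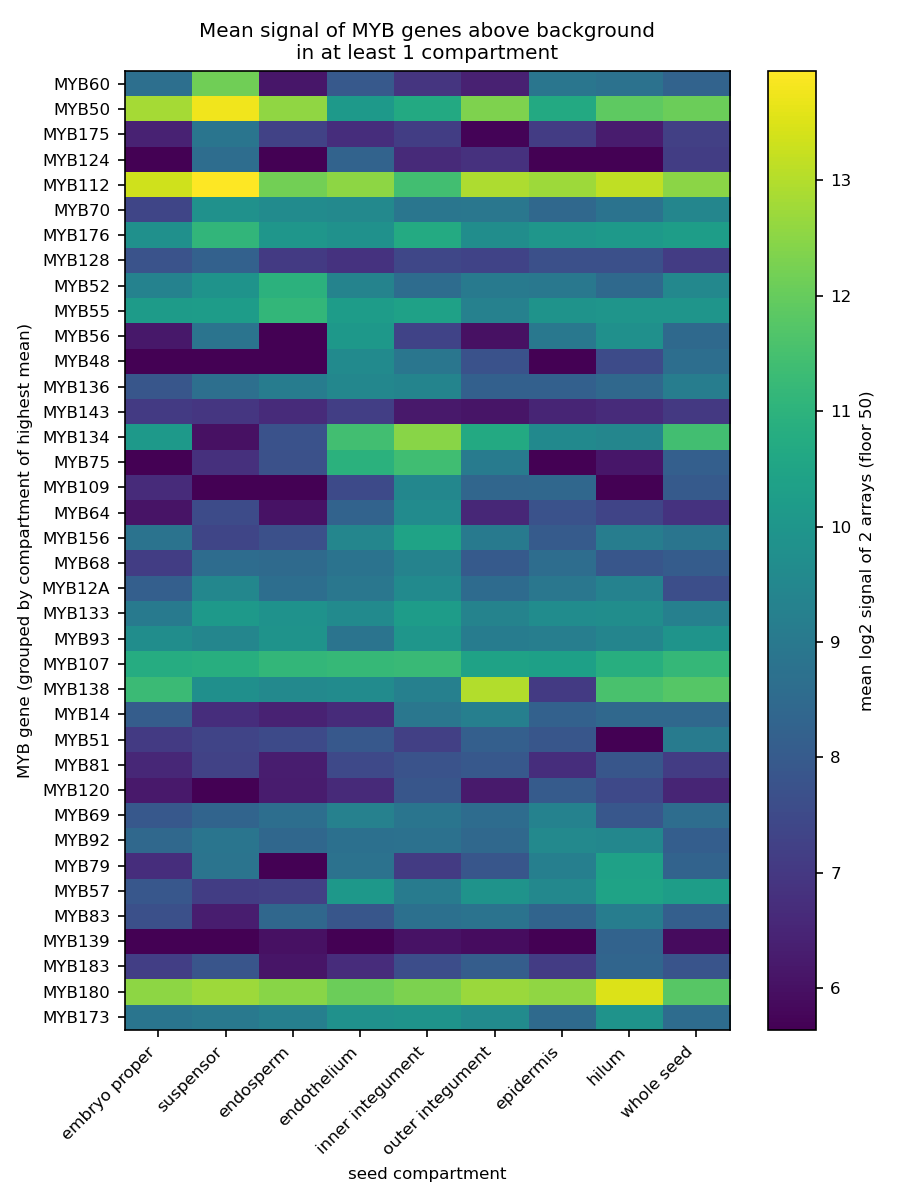
Mean log2 signal of the 38 MYB genes above the background level in at least 1 compartment, by compartment and in whole seed (columns; 2 arrays each), with genes grouped by the compartment of their highest mean. Blocks of high signal fall in suspensor and inner integument, and no gene is highest in embryo proper.

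Where the genes peaked differed between compartments. The highest mean lay in inner integument for 13 of the 52 and in suspensor for 12, with 8 in hilum, 7 in epidermis, 5 each in endothelium and outer integument, 2 in endosperm and 0 in embryo proper. Among all tested probe sets, 15.6% peaked in inner integument, 13.1% in suspensor, 15.8% in hilum, 8.96% in epidermis, 6.61% in endothelium, 13.2% in outer integument, 15.8% in endosperm and 10.9% in embryo proper. The lowest mean lay in embryo proper for 12 MYB genes and in inner integument for 1, beside 18.6% and 11.1% of all tested probe sets. These counts include genes near background, whose order among compartments is not firm, and they are a description with no test. They also leave out the 4 MYB genes set apart as high in hilum. In captured tissue, fewer cells that use a gene and less RNA per cell cannot be told apart. The comparisons of 1 compartment with the other 7 share arrays with each other, so their results are not independent.

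**Figure D2:**
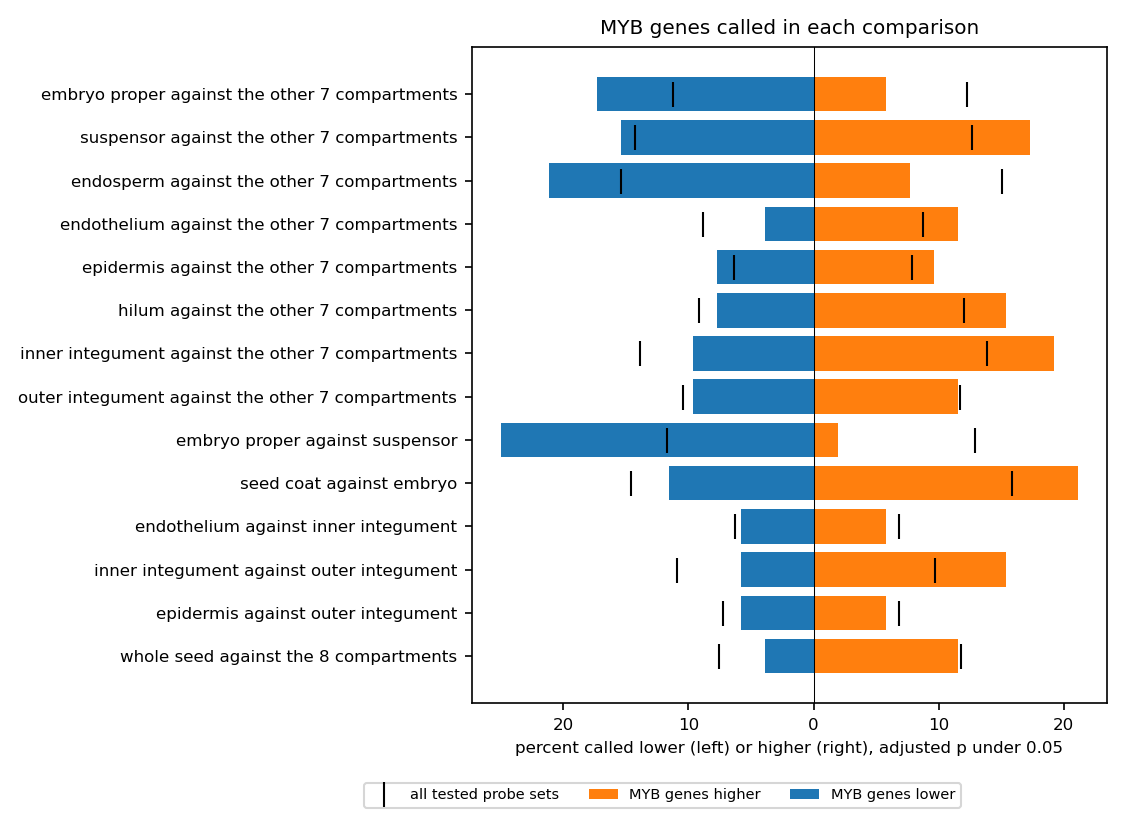
Percent of the 52 MYB genes called lower (left, blue) and higher (right, orange) in each of the 14 comparisons, with black marks for the percent of all tested probe sets. The bar for embryo proper against suspensor is the most uneven, with 13 lower and 1 higher.

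The inner integument, a cell layer of the seed coat between endothelium and outer integument, held 10 MYB genes higher and 5 lower than the other 7 compartments. Of all tested probe sets 13.9% were higher there and 13.9% lower, and the median difference was 0.26 for the MYB genes and 0.01 for all, on the log2 scale. Of the 15 calls, 6 held in every fit that left out 1 array: MYB75, MYB134, MYB109 and MYB64 higher, and MYB112 and MYB50 lower. Without the 3 arrays of raised background, 5 were called higher and 3 lower.

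MYB134 was a gene of the inner seed coat layers and had its lowest signals in the suspensor. Its signals were 5211 and 6092 in inner integument, 2967 and 2559 in endothelium, 1532 and 1756 in outer integument, 1201 and 1056 in embryo proper, 797.1 and 743.4 in epidermis, 824.7 and 582.1 in hilum, 115.1 and 395.4 in endosperm, and 9.8 and 85.1 in suspensor. In this order, arrays of neighbouring compartments overlapped only between epidermis and hilum. Whole seed had 2524 and 3048. MYB134 was 9.0-fold higher in inner integument than in the other 7 (log2 3.17, SE 0.32, adjusted p = 5.46e-07, limma) and 3.97-fold higher in endothelium (adjusted p = 0.000192). In suspensor it was at least 6.80-fold lower (log2 -4.18, SE 0.32, adjusted p = 1.35e-08) with both arrays under the background level there. Embryo proper and suspensor, which are parts of 1 embryo, differed by at least 6.47-fold (adjusted p = 8.44e-07), and MYB134 was the only MYB gene called higher in embryo proper of that pair. In endosperm it was 4.69-fold lower (adjusted p = 3.1e-05), a size that became 2.53-fold without endosperm array 1 and 8.69-fold without array 2. Between inner and outer integument it was 3.44-fold higher on the inner side (adjusted p = 0.0053), and without the 3 arrays of raised background the fold was 3.47 and not called (adjusted p = 0.133, with fewer arrays). Of the 46 calls of a MYB gene lost without those arrays, 15 had a fold no smaller than with them.

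MYB75 was also a gene of the inner layers. It had 2053 and 3595 in inner integument, 1580 and 2474 in endothelium, 518.4 and 574.0 in outer integument, and at most 259.1 on any array of the other 5 compartments. The arrays of inner integument and endothelium overlapped, and each of them lay above all arrays of the other 6 compartments. In embryo proper and epidermis its 4 arrays read at most 13.4. MYB75 was 15.8-fold higher in inner integument than in the other 7 (log2 3.98, SE 0.35, adjusted p = 8.81e-08) and 11.0-fold higher in endothelium (adjusted p = 8.82e-07). The size of both folds depends in part on the floor of 50. Embryo proper, suspensor, epidermis and hilum were each under the background level on both arrays. Inner integument exceeded outer integument 4.98-fold (adjusted p = 0.0012). In epidermis it was at least 3.22-fold lower than in outer integument (adjusted p = 2.78e-05).

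MYB64 and MYB109 completed the inner integument group. MYB64 had 675.5 and 941.9 there, above every other array, the next being 341.1 in endothelium. It was at least 4.16-fold higher than in the other 7 (log2 2.55, SE 0.39, adjusted p = 5.88e-05) and at least 4.60-fold higher than in outer integument (adjusted p = 0.000269). MYB109 had 972.3 and 536.6 in inner integument, 191.1 and 579.2 in outer integument and 280.9 and 411.6 in epidermis, so the first 2 overlapped. In suspensor, endosperm and hilum its 6 arrays read at most 46.3, and in inner integument it was at least 3.53-fold higher than in the other 7 (adjusted p = 8.9e-05).

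Genes of the circadian clock family were part of this set by name. MYB156, listed as LCL3 and GmLHY2a, had 1594 and 1244 in inner integument and at most 796.8 elsewhere in the captures, and was 3.88-fold higher there than in the other 7 (adjusted p = 0.0037). That call was lost without inner integument array 1 (adjusted p = 0.0804) and without the 3 arrays of raised background (0.139). MYB114, listed also as GmLHY2b and LCL2, was read at 191.9 and 244.6 in inner integument, above every other array but near the background level. It was at least 1.33-fold higher there (adjusted p = 0.00506, or 0.0867 without inner integument array 2). The table gives MYB114 the synonym MYB134 as well, so the name MYB134 stands for 2 gene entries. Over the 8 compartment means, MYB134 and MYB156 were the most alike pair of the 38 genes above background (Pearson r = 0.919 over 8 compartments, a description with no test, since the means share arrays). MYB120 is likewise also a synonym of MYB64.

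The endothelium, the innermost seed coat layer, had 6 MYB genes higher and 2 lower than the other 7 compartments, where 8.76% of all tested probe sets were higher and 8.8% lower. MYB48, MYB56, MYB75 and MYB134 were higher, and MYB50 lower, in every fit that left out 1 array. MYB48 had 595.9 and 1037 in endothelium and 470.2 and 480.0 in inner integument. Hilum gave it 63.0 and 539.8, a wide gap, and outer integument 141.4 and 320.4. In embryo proper, suspensor, endosperm and epidermis its 8 arrays read at most 40.0, and in endothelium it was at least 3.65-fold higher than in the other 7 (log2 2.94, SE 0.53, adjusted p = 0.000562). Another probe set of MYB48 read it at a mean of 87.4, near background, and did not follow this pattern (r = 0.063 over 8 compartments).

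MYB56 separated the layers in another way. It was high in endothelium (970.8 and 1183), hilum (1038 and 787.1), epidermis (466.9 and 526.5) and suspensor (385.2 and 534.1). It was low in inner integument (92.2 and 280.1), embryo proper (82.4 and 65.1), outer integument (40.9 and 84.7) and endosperm (37.6 and 19.1). No array of the first 4 compartments overlapped with any of the last 4. It was 5.75-fold higher in endothelium than in the other 7 (adjusted p = 9.11e-05) and 4.74-fold higher in hilum (adjusted p = 0.000298). Epidermis exceeded outer integument at least 2.86-fold (adjusted p = 0.000397) and suspensor exceeded embryo proper at least 3.29-fold (adjusted p = 0.000646), the lower side being under the background level on both arrays each time.

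Between endothelium and the adjoining inner integument, 3 MYB genes were higher and 3 lower in endothelium, beside 6.81% and 6.31% of all tested probe sets. MYB56 was at least 4.45-fold higher in endothelium (log2 2.74, SE 0.50, adjusted p = 0.00111), and its fitted fold of 6.67 became 3.83 without inner integument array 1 and 11.6 without array 2. MYB112 was 2.12-fold higher (adjusted p = 0.00116). The other 4 calls (MYB79 higher, MYB14, MYB93 and MYB109 lower) were lost without the 3 arrays of raised background, with adjusted p of 0.121, 0.318, 0.187 and 0.125. In the fit of all arrays MYB14 differed by at least 3.69-fold and MYB109 by 3.96-fold, and without those arrays the fold of MYB79 was 3.28, against 3.25 with them.

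The outer integument had 6 MYB genes higher and 5 lower than the other 7 compartments, beside 11.7% and 10.4% of all tested probe sets. Of these 11 calls, MYB138 higher and MYB56 and MYB60 lower held in every fit that left out 1 array. Without the 3 arrays of raised background 4 of the 11 remained.

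By the probe set used, MYB138 was highest in the outer integument. Its 2 arrays there read 8222 and 8064, the next being hilum with 2903 and 3209 and embryo proper with 3015 and 2081, which overlapped each other. Suspensor had 724.8 and 1047, endothelium 1007 and 627.3, endosperm 698.7 and 787.3, and inner integument 526.4 and 721.7, with overlap between each of these and the next. Epidermis, the layer outside the outer integument, had 345.6 and 48.1, the lowest values of all. MYB138 was 9.59-fold higher in outer integument than in the other 7 (log2 3.26, SE 0.42, adjusted p = 1.18e-05) and 13.2-fold higher than in inner integument (adjusted p = 8.2e-05). Against epidermis, where array 2 was under the background level, the difference was at least 29.98-fold (log2 -5.95 for epidermis against outer integument, SE 0.56, adjusted p = 4.39e-07). With the epidermis arrays so far apart, the fitted fold of 61.9 was 163 without epidermis array 1 and 23.6 without array 2. Its deficit in epidermis against the other 7, at least 5.64-fold (adjusted p = 8.66e-06), moved likewise from a fitted 11.6 to 30.6 and 4.43. Whole seed had 3226 and 3700. Another probe set of MYB138 was above the background level on both arrays of no compartment. It had 15.4 and 17.3 in outer integument and was highest in hilum (136.0 and 96.5).

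**Figure D3:**
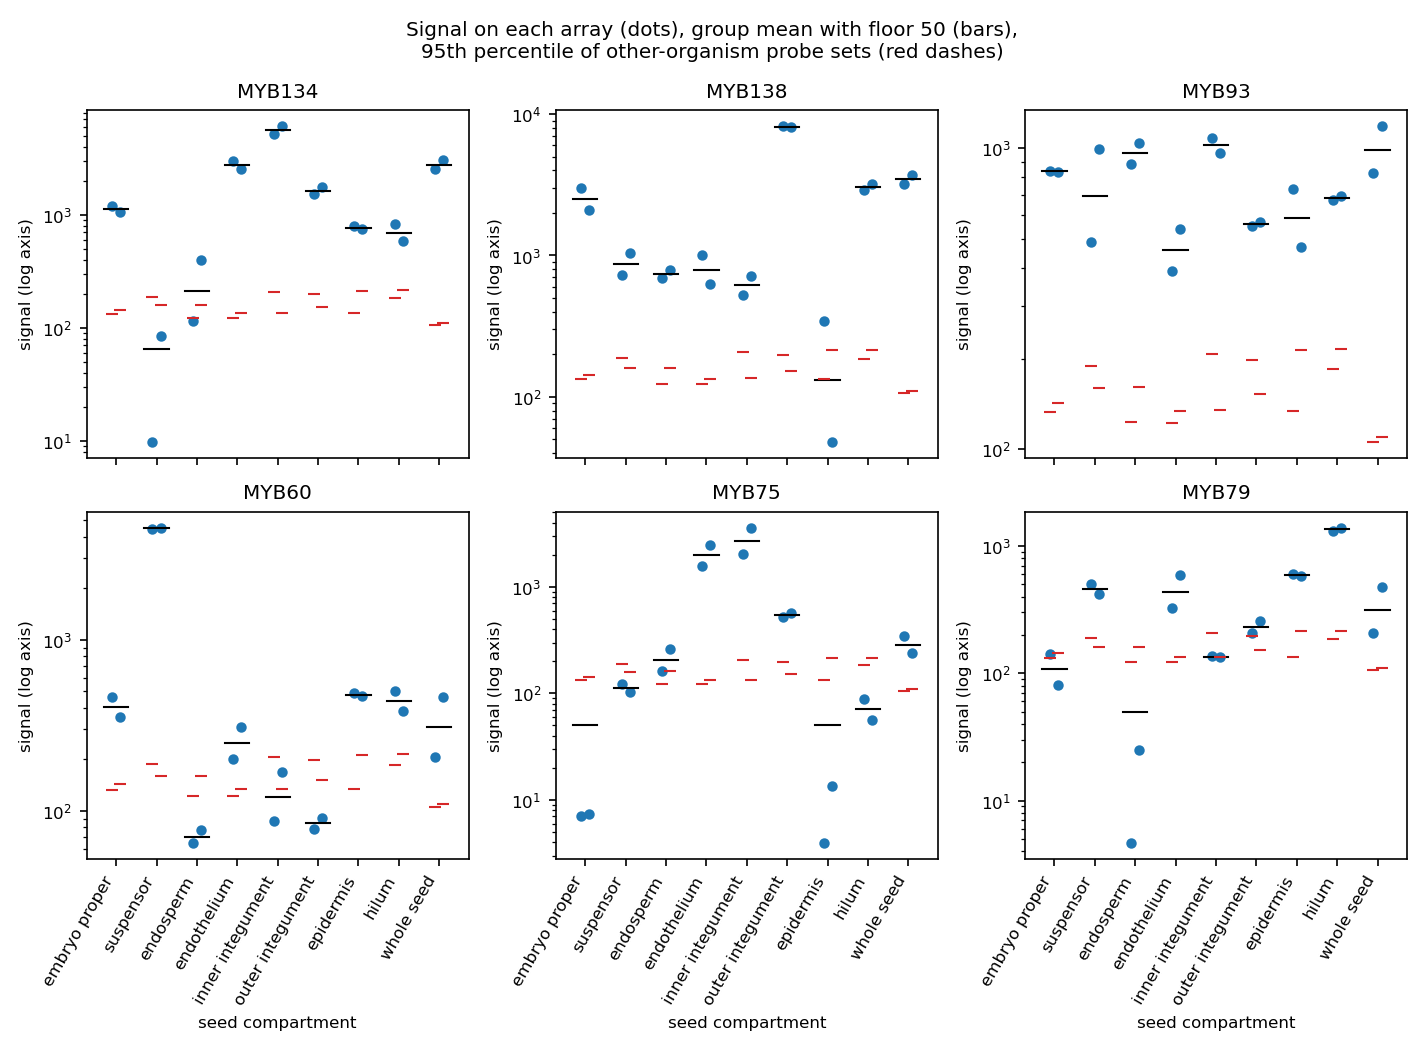
Signal on each array (dots, log axis), group mean with the floor of 50 (black bars) and background level of each array (red dashes) for MYB134, MYB138, MYB93, MYB60, MYB75 and MYB79 in the 8 compartments and whole seed. MYB134 and MYB75 are highest in inner integument, MYB138 in outer integument, MYB60 in suspensor and MYB79 in hilum, while MYB93 is nearly level.

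From inner to outer integument the MYB profile turned over in a few genes: 8 were higher in inner and 3 in outer integument, beside 9.68% and 10.9% of all tested probe sets. MYB64, MYB75 and MYB134 led the inner side. On the outer side were MYB138, MYB50 (3.14-fold, adjusted p = 0.000544) and MYB112 (2.81-fold, adjusted p = 2.71e-05), and these 3 also held without the 3 arrays of raised background. MYB107, MYB176, MYB55, MYB175 and MYB120 were called higher in inner integument by fitted folds of 1.80 to 3.12, with MYB175 and MYB120 under the background level on both outer integument arrays, and these 5 were lost without those arrays, as each was in at least 1 fit without a single array.

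The suspensor had 9 MYB genes higher and 8 lower than the other 7 compartments, beside 12.7% and 14.3% of all tested probe sets. On both its arrays 7 genes lay above all 14 arrays of the other compartments, which is 13.5% of the 52, against 5.82% of all tested probe sets. Of the 7, 6 were called. Hilum had 5 such genes, inner integument 4, endosperm 2, endothelium and outer integument 1 each, and epidermis and embryo proper 0. The share of all tested probe sets is given for suspensor and embryo proper alone, so the other counts only describe these genes. MYB60, MYB50, MYB112, MYB124 and MYB175 were higher, and MYB134 and MYB57 lower, in every fit that left out 1 array.

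MYB60 was the foremost suspensor gene. It had 4473 and 4529 in suspensor, against 64.5 to 501.4 on the 14 arrays of the other compartments. Second to suspensor came epidermis (487.3 and 469.5), hilum (501.4 and 382.0) and embryo proper (463.6 and 355.9), which did not separate. Endosperm (64.5 and 77.3) and outer integument (78.2 and 91.2) were under the background level. In suspensor it was 21.9-fold higher than in the other 7 (log2 4.46, SE 0.35, adjusted p = 1.93e-08) and 11.1-fold higher than in embryo proper (adjusted p = 1.75e-05). Outer integument was at least 2.76-fold under epidermis (adjusted p = 0.000868). The gene's other 3 probe sets were weak, with means of 61.9 to 76.1, and shared with it the peak in suspensor (r = 0.851 to 0.926 over 8 compartments), while the order of the other compartments differed, and in none of those were both arrays above the background level. In suspensor, 1 of the 3 was above that level on both arrays (205.2 and 421.8), and the others were not (109.9 and 248.5, and 86.9 and 315.7). All 3 were called higher in suspensor, by at least 1.83-, 1.047- and 1.049-fold, though each of these calls was lost in at least 1 fit without 1 array.

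By the probe sets used, which are of the same array cluster, MYB50 and MYB112 were strong in every compartment and highest in suspensor. MYB112 had 16777 and 14768 in suspensor, 10545 and 10182 in embryo proper, and 2718 and 2817 in inner integument, the lowest of all compartments. MYB50 had 13947 and 13579 in suspensor, 6842 and 7786 in embryo proper, and 1277 and 928.6 in endothelium. Suspensor exceeded the other 7 by 2.52-fold for MYB112 (log2 1.33, SE 0.15, adjusted p = 1.85e-06) and by 4.49-fold for MYB50 (log2 2.17, SE 0.23, adjusted p = 6.77e-07). Inner integument was 2.90-fold lower for MYB112 (adjusted p = 3.83e-07), and endothelium 4.04-fold lower for MYB50 (adjusted p = 3.42e-06). By its suffix, the probe set of MYB50 may also bind transcripts of related genes, as may those used for MYB52, MYB92, MYB93, MYB136, MYB145, MYB175, MYB176 and MYB180, 9 of the 52 in all. A second MYB50 probe set, with a mean of 222, followed it (r = 0.948).

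MYB124, MYB175, MYB176 and MYB70 were also highest in suspensor. MYB124 had 331.4 and 465.2 in suspensor and 322.4 and 305.7 in endothelium. It read at most 32.8 on both arrays of embryo proper, endosperm, epidermis and hilum, and it differed by at least 2.85-fold between suspensor and embryo proper (adjusted p = 0.00224). MYB175 had 514.5 and 416.1 in suspensor and at most 218.8 on any array of another compartment, a difference of at least 2.89-fold from the other 7 (adjusted p = 0.000176). MYB176, known in soybean as an activator of the chalcone synthase gene CHS8 in isoflavonoid synthesis, had 1849 and 2685 in suspensor, above the 669.8 to 1689 of the other compartments. It was 2.13-fold higher than in the other 7 (adjusted p = 0.00114, or 0.0555 without suspensor array 2). MYB70 differed between the 2 parts of the embryo, with 1087 and 769.5 in suspensor and 167.4 and 164.2 in embryo proper. That was a 5.52-fold difference (adjusted p = 4.95e-05), and embryo proper was the lowest of the 8 compartments for it. The suspensor arrays of MYB70 overlapped those of endosperm (755.9 and 848.4) and endothelium (891.7 and 641.8).

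Embryo proper and suspensor, compared directly, differed in 14 MYB genes, of which 13 were lower in embryo proper and 1 higher. Of all tested probe sets 11.7% were lower and 12.9% higher, and the median was -0.44 for MYB genes and 0.00 for all. MYB60, MYB124, MYB56, MYB70 and MYB175 lower and MYB134 higher held in every fit that left out 1 array. The other 8 were lost in at least 1 such fit, and the count of calls ran from 7 to 14 over them. Against the other 7 compartments, embryo proper had 3 MYB genes higher and 9 lower, beside 12.3% and 11.2% of all tested probe sets. MYB50 was 2.18-fold higher (adjusted p = 0.00109). MYB75 (at least 2.21-fold), MYB56 (at least 1.98-fold) and MYB70 (3.46-fold) were the lower genes that held in every fit that left out 1 array. In embryo proper 0 MYB genes had both arrays above all others, against 5.18% of all tested probe sets.

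MYB12A gave 2 different pictures, depending on the probe set. The probe set of highest mean was moderate throughout, from 272.6 to 892.2 on the captured arrays, and the F test did not call it (adjusted p = 0.091). It was, however, called higher in suspensor than in embryo proper, by 2.52-fold (adjusted p = 0.0381), a call lost in 4 of the 18 fits without 1 array. A second probe set that the table assigns to the same gene read 4561 and 8629 in suspensor, 267.6 and 286.0 in embryo proper, and at most 82.8 on any array of the other 6 compartments. By this probe set, suspensor exceeded the other 7 by at least 36.0-fold (log2 6.56, SE 0.36, adjusted p = 1.59e-10) and embryo proper by 22.7-fold (adjusted p = 1e-06), so the higher level in suspensor than in embryo proper was called by both probe sets. Among the other 7 compartments, embryo proper alone was above the background level. Whole seed read 103.1 and 32.5, under the background level. The 2 probe sets belong to different array clusters and were little alike (r = 0.197 over 8 compartments). Another probe set, with a suffix for possible cross-binding, followed the first (r = 0.866) and was also higher in suspensor than in embryo proper, by at least 3.24-fold (adjusted p = 0.000779). The second probe set was singled out after its values were seen, and which probe set reads the gene better was not tested.

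**Figure D4:**
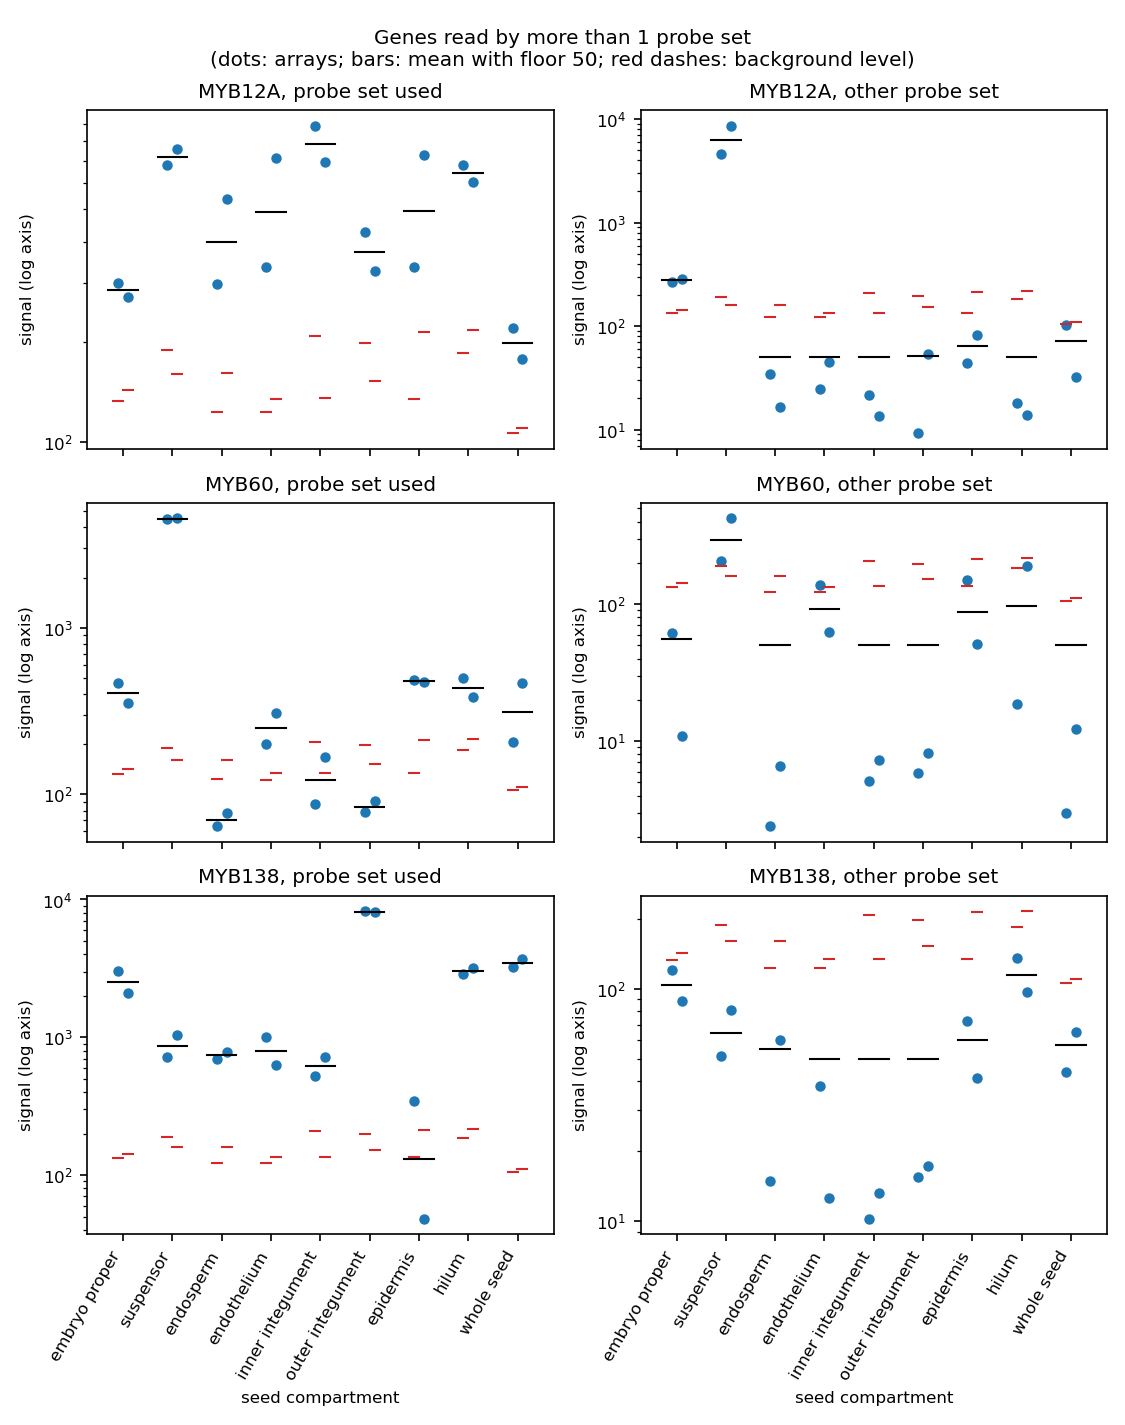
Signal on each array (dots, log axis), group mean (black bars) and background level (red dashes) for the probe set used and another probe set of MYB12A, MYB60 and MYB138. The second probe set of MYB12A reaches 4561 and 8629 in suspensor, that of MYB60 keeps suspensor on top at lower signal, and that of MYB138 stays at 136.0 or under.

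The hilum, the scar region where the seed joins the pod, had 8 MYB genes higher and 4 lower than the other 7 compartments, beside 12% and 9.19% of all tested probe sets. The 8 include MYB139 and MYB179, which reached a signal of 100 on the 2 hilum arrays alone and so passed the filter only through hilum. MYB79, MYB139, MYB56 and MYB180 higher and MYB75 lower held in every fit that left out 1 array. The other 7 of the 12 calls were lost without hilum array 2, the array of the highest background level. MYB79 had 1316 and 1388 in hilum. Epidermis followed with 605.4 and 585.0, then suspensor with 506.1 and 421.7 and endothelium with 325.2 and 587.3, which overlapped. Endosperm had 4.6 and 24.8. It was 6.34-fold higher in hilum than in the other 7 (log2 2.67, SE 0.36, adjusted p = 2.58e-05) and at least 2.43-fold lower in endosperm (adjusted p = 8.38e-06).

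MYB139 stood above the background level on both arrays in hilum alone among the captures. It had 215.3 and 452.8 there and at most 87.8 on any other captured array, a difference of at least 2.02-fold. MYB139 passed the filter through those 2 arrays alone, so its call in hilum is not independent of the filter and is no separate support. MYB180 was high everywhere and rose in hilum by the probe set used, with 10697 and 12856 there, against 4122 to 7538 in the other compartments. That was a 2.05-fold difference (SE 0.14 on the log2 scale, adjusted p = 2.81e-05). Its other probe set, with a mean of 1470 and above the background level in all 8 compartments, showed no such call. It had 1085 and 2863 in hilum and was highest in embryo proper with 2327 and 2254 (hilum 1.15-fold higher than the other 7, adjusted p = 0.687; F test adjusted p = 0.109; r = 0.439 with the first). MYB57, a gene of the seed coat rather than of hilum, had 900.9 and 2203 in hilum, 974.4 and 1176 in endothelium, 925.8 and 1012 in outer integument, and 117.8 to 299.9 in embryo proper, suspensor and endosperm. Its 3.40-fold excess in hilum (adjusted p = 0.00111) was 2.18-fold and not called without hilum array 2 (adjusted p = 0.114), and 5.33-fold without array 1. The 4 MYB genes left out by the rule had been set apart as high in hilum, so their peak there is no separate result. Their size in hilum was 28.4- to 31.6-fold over the other 7 compartments for MYB11, MYB172 and MYB73.

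In epidermis, the outermost layer, 5 MYB genes were higher and 4 lower than in the other 7 compartments, beside 7.9% and 6.35% of all tested probe sets. MYB138 and MYB75 lower were the calls that held in every fit that left out 1 array, MYB75 by at least 1.79-fold (adjusted p = 3.09e-05). The 5 higher genes (MYB56, MYB79, MYB109, MYB120 and MYB160) were each lost without 1 epidermis array or more, and all 5 without the 3 arrays of raised background. Against outer integument, 3 MYB genes were higher and 3 lower in epidermis, beside 6.84% and 7.21% of all tested probe sets. MYB56, MYB60, MYB138 and MYB75 have been given above. MYB50 was 3.17-fold lower in epidermis (adjusted p = 0.000633, or 0.0785 without the 3 arrays of raised background), and MYB120 was at least 1.503-fold higher (adjusted p = 0.0389), a call that 7 of the 18 fits without 1 array lost. Without epidermis array 2 its adjusted p was 0.249, and without outer integument arrays 1 and 2 it was 0.0596 and 0.219.

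The endosperm, the nutritive tissue that the embryo consumes, had 4 MYB genes higher and 11 lower, beside 15.1% and 15.4% of all tested probe sets. MYB52 was highest there, with 2134 and 1944 against 333.8 to 1125 in the other compartments, a 3.73-fold difference (log2 1.90, SE 0.27, adjusted p = 2.44e-05). MYB55 had 2701 and 1843 in endosperm against 503.2 to 1466 elsewhere, a 2.13-fold difference (adjusted p = 0.00316, or 0.134 without endosperm array 1). Lower in endosperm in every fit that left out 1 array were MYB79, MYB56 (at least 2.05-fold, adjusted p = 4.79e-05), MYB60 (at least 2.64-fold, adjusted p = 3.82e-05), MYB134 and MYB57 (3.88-fold, adjusted p = 0.000244). Both endosperm arrays of MYB79, MYB56 and MYB60 lay under the background level.

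Seed coat and embryo, each taken as the mean of its compartments, differed in 17 MYB genes, with 11 higher in seed coat and 6 lower, beside 15.9% and 14.6% of all tested probe sets. The higher genes that held in every fit that left out 1 array were MYB134 (6.22-fold, adjusted p = 1.86e-07), MYB75 (at least 2.59-fold, adjusted p = 1.39e-06), MYB57 (4.91-fold, adjusted p = 2.47e-06), MYB48 (at least 1.52-fold), MYB109 (at least 1.53-fold), MYB83 (at least 2.02-fold) and MYB120. For MYB120 the seed coat mean of 151.7 lay under the embryo mean once raised to background (154.9), so it has no such fold. The lower genes that held in every such fit were MYB60 (6.10-fold, adjusted p = 6.69e-07), MYB50 (4.46-fold, adjusted p = 2.56e-08) and MYB112 (2.13-fold, adjusted p = 9.31e-07). Of the 17 genes, MYB57, MYB50 and MYB112 separated all 10 seed coat arrays from all 4 embryo arrays. The share of all tested probe sets that did so was not worked out. MYB134 did not, since embryo proper had more of it than epidermis and hilum had, and MYB60 did not, since embryo proper was at the level of epidermis and hilum.

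A pair of genes read by probe sets of 1 array cluster did not always share a profile. Over the 8 compartment means, MYB175 and MYB176 were alike (r = 0.83), both read by probe sets whose suffix marks possible cross-binding, as were MYB79 and MYB179 (0.772) and MYB50 and MYB112 (0.666), whereas MYB75 and MYB83 were not (0.188). MYB83 lacked the inner-layer peak of MYB75: it had 410.3 and 801.7 in hilum, 512.1 and 390.7 in outer integument, 502.7 and 343.3 in inner integument and 41.8 and 126.9 in suspensor. Its deficit in suspensor, at least 1.97-fold (adjusted p = 0.000929), was lost without suspensor array 1, and the fitted fold of 4.31 was 2.71 without array 1 and 6.87 without array 2. Another probe set of MYB83 was lowest in embryo proper (120.0 and 98.9), with 234.0 and 157.2 in suspensor, and the F test did not call it (adjusted p = 0.392). MYB64 and MYB120 lay between (r = 0.594): MYB120 had 354.1 and 154.7 in inner integument, but 191.7 and 354.7 in epidermis. These correlations are descriptions over 8 points that share arrays.

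**Figure D5:**
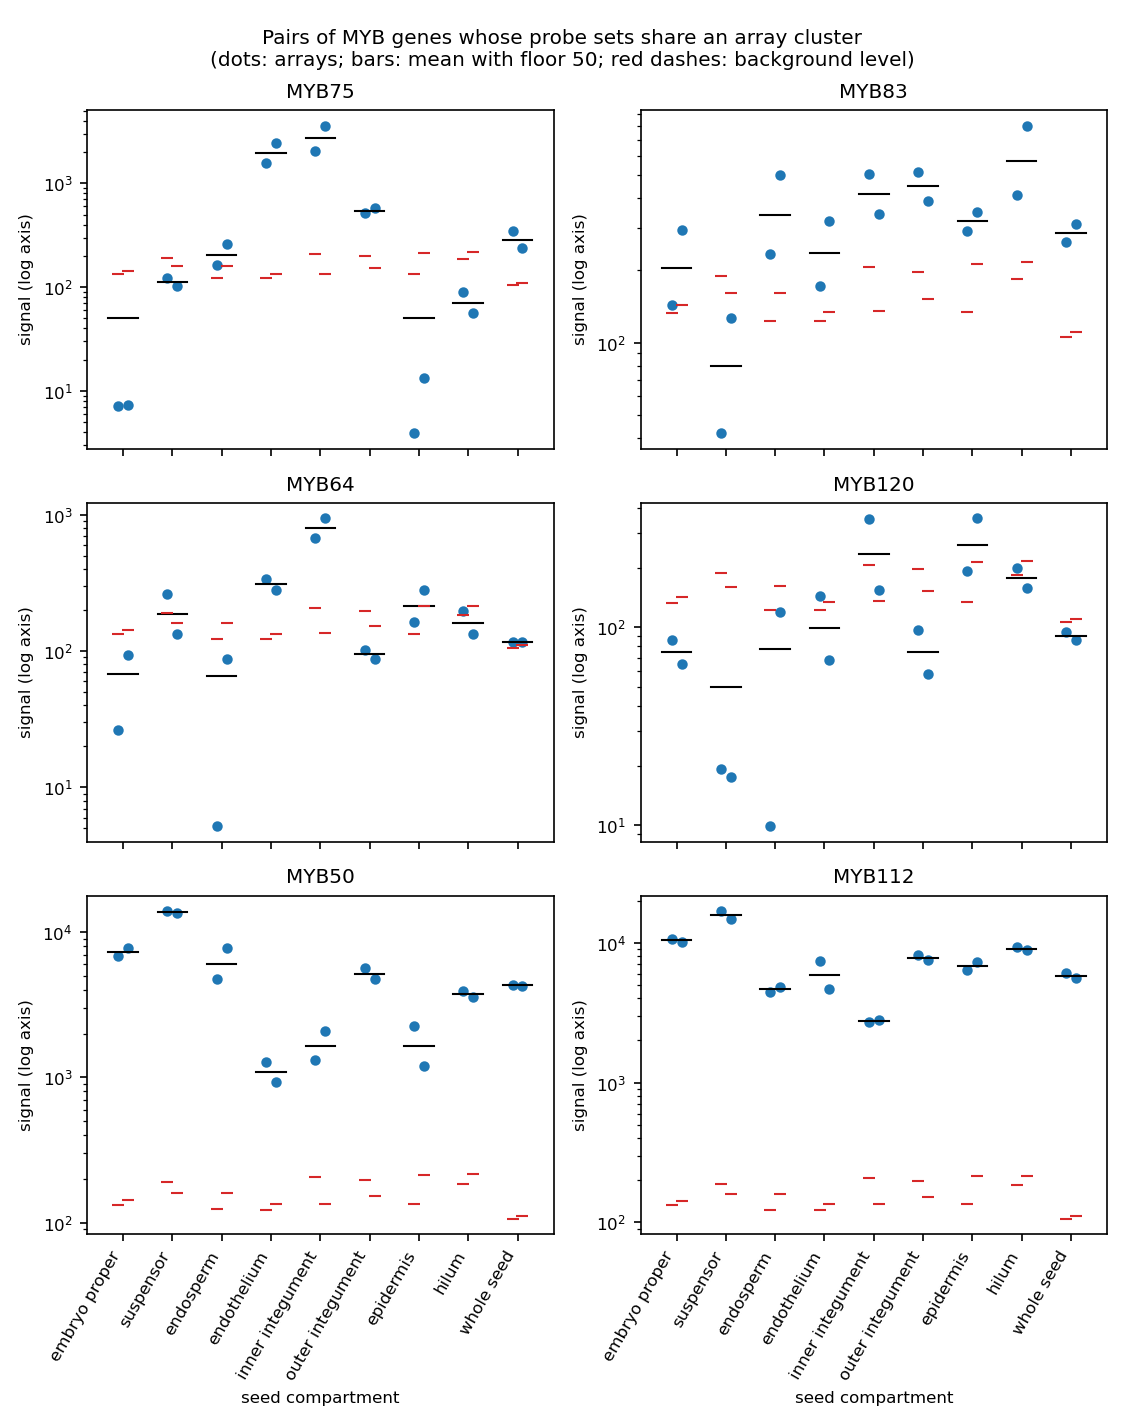
Signal on each array (dots, log axis), group mean (black bars) and background level (red dashes) for 3 pairs of MYB genes, each pair read by probe sets of the same array cluster. MYB75 peaks in inner integument and endothelium while MYB83 does not, and MYB50 and MYB112 are both highest in suspensor.

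Of the 13 genes above the background level in all 8 compartments, 8 were called by the F test and 5 (MYB12A, MYB92, MYB93, MYB133 and MYB173) were not. Among the 8, MYB50 spanned 12.6-fold between its highest and lowest compartment, MYB52 5.76-fold, MYB112 5.69-fold and MYB70 5.52-fold, whereas MYB107 spanned 1.86-fold, from 1188 to 2795 (F test adjusted p = 0.0134). MYB93 varied little. It had 1084 and 964.3 in inner integument, 886.9 and 1045 in endosperm, 842.3 and 834.7 in embryo proper, 489.6 and 991.3 in suspensor, 672.5 and 693.7 in hilum, 731.5 and 470.4 in epidermis, 550.5 and 568.9 in outer integument, and 392.0 and 539.0 in endothelium. In that order arrays of neighbours overlapped except between endosperm and embryo proper and between outer integument and endothelium. The F test did not call it (adjusted p = 0.0919), and among the 14 comparisons it was called only between endothelium and inner integument (2.22-fold lower in endothelium, adjusted p = 0.0408). That call was lost in 9 of the 18 fits without 1 array, with an adjusted p of up to 0.24 (without endothelium array 1). MYB173 ran from 281.6 to 1078 and MYB92 from 276.2 to 815.5, with F test adjusted p of 0.052 and 0.0748. Another probe set of MYB92, with a mean of 84.4, was called higher in epidermis than in the other 7, by at least 1.69-fold (adjusted p = 0.00619). MYB92 is known to raise tolerance to salt and cold when overexpressed in Arabidopsis. Of the 52 genes, 19 were called in 0 of the 8 comparisons of a compartment with the other 7. The share of all tested probe sets was worked out neither for this count nor for the F test among the 13 genes. Both counts describe these genes alone.

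Flavonoid and phenylpropanoid genes, known targets of plant MYB factors, were counted as a list of 22. In hilum 12 of them were higher and 3 lower than in the other 7 compartments, beside 12% and 9.19% of all tested probe sets, in epidermis 11 and 1 (7.9% and 6.35%), and in suspensor 10 and 5 (12.7% and 14.3%). In endosperm 0 were higher and 13 lower (15.1% and 15.4%), in inner integument 1 and 10 (13.9% and 13.9%), and in outer integument 1 and 11 (11.7% and 10.4%). In endothelium the counts were 2 and 8 (8.76% and 8.8%), and in embryo proper 5 and 10 (12.3% and 11.2%). The inner integument, where the most MYB genes of this set peaked, was among the compartments with few of these genes higher. Of the 22 genes, 9 were highest in hilum and 8 in suspensor, where MYB176 was highest too. The 8 included the isoflavone synthase genes IFS1 (1326 and 2644 in suspensor) and IFS2 (2139 and 3529), the chalcone synthase gene CHS1 (1543 and 3077) and the chalcone isomerase genes CHI1A (13118 and 17861) and CHI1B1 (3050 and 4214). CHS8, the known target of MYB176, was among the 9, with 13672 and 12681 in hilum and 308.2 and 314.4 in suspensor. These genes were singled out after their values were seen. No partner of MYB factors of the bHLH or WD40 families matched by name.

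Whole seed differed from the mean of the 8 compartments in 8 MYB genes, with 6 higher and 2 lower, beside 11.8% and 7.56% of all tested probe sets. MYB134 higher (3.36-fold, adjusted p = 0.000701) and MYB180 lower (1.79-fold, adjusted p = 0.000283) held in every fit that left out 1 array. MYB142, with 314.1 and 372.3 in whole seed and at most 209.8 on any captured array, was above the background level there alone. It was at least 2.14-fold higher (adjusted p = 0.00479), and that call was lost without whole seed array 1 (adjusted p = 0.0613) and without array 2 (adjusted p = 0.104).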

How the data were processed

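The authors deposited 1 intensity (linear signal) for each probe set of the Affymetrix Soybean Genome Array, made with GCOS 1.3, per the submitters' processing notes. Its settings are not given in the sources used here. Per the labels' protocols, 2 ng of RNA was amplified with RiboAmp OA and labelled with an ENZO kit. The trimmed mean (2% at each end) was 500.0 to 500.1 on every array. The table held no detection calls, and its depth is limited by the number of arrays, 2 in each group.

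Of 61170 probe sets, 37593 are for soybean; 23577 were left out of the tests, 23394 of which are for other organisms and gave the background level. Signals were floored at 50 and taken to log2. Tests ran on the 31961 probe sets that reached 100 on 2 or more arrays. limma 3.58.1 in R 4.3.3 (lmFit, and eBayes with a variance trend) fitted 9 group means without covariates and was tested on simulated data. SE is that of the log2 fold. Where the lower side of a call averaged under the background level, the fold is written as at least, with that side's signals under the background level raised to it.

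Genes named in a comparison were MYB134, MYB138, MYB93 and called genes without overlap of arrays, up to 4 each way. Other probe sets of MYB12A, MYB50, MYB83, MYB138, MYB180 and MYB92 were added after values were seen. So were MYB48, MYB92, MYB107, MYB109, MYB173, MYB176 and further comparisons of named genes. Members and lists were chosen with earlier results of these data known. Gene names come from the platform's table: 8677 soybean probe sets had 1 gene, 370 several and 28546 were not listed. RefSeq's gene list held 44 of the 52 genes. No coordinates or sequences were used.

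Replicate numbers share no source in the labels, and deviations of same-numbered arrays correlated between -0.0731 and 0.0829 over 36 pairs of groups. The p-values therefore measure only the spread between these samples, which may be technical. Alternatives tried were other floors, filters and normalization, a replicate block, other probe sets and arrays left out.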

Additional observations from a re-analysis of the deposited data

How the results depend on the processing

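Of 161 calls of a MYB gene in a comparison, 69 held in all 18 fits that left out 1 array and 92 were lost in at least 1, and 115 held without the 3 arrays of raised background. The counts of called genes ran from 28 to 32 for the F test when arrays were left out in turn. For single compartments against the other 7 they ran from 5 to 13 in embryo proper, 10 to 19 in suspensor, 10 to 16 in endosperm, 5 to 9 in endothelium, 2 to 10 in epidermis, 5 to 14 in hilum, 7 to 18 in inner integument and 4 to 12 in outer integument. They ran from 7 to 14 between embryo proper and suspensor, 13 to 20 between seed coat and embryo, 2 to 8 between endothelium and inner integument, 6 to 12 between inner and outer integument, 5 to 8 between epidermis and outer integument, and 2 to 8 for whole seed. A group left with 1 array is assumed to vary as the others do.

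Without the 3 arrays of raised background, the counts were 3 in epidermis, 8 in inner integument, 4 in outer integument, 3 between endothelium and inner integument and 5 between inner and outer integument, with fewer arrays in the fit. Whole seed had 5 with no filter. With the lowest probe set of each gene, endothelium had 5 and whole seed 2, and 14 calls changed sign: MYB138 in outer integument (-0.43 on the log2 scale), in epidermis against outer integument (0.27) and in whole seed (-0.19), MYB57 in suspensor (0.71), endothelium (-0.23), hilum (-0.23), outer integument (-0.10), seed coat (-0.26) and whole seed (-0.20), MYB48 in embryo proper (0.59), suspensor (0.08) and seed coat (-0.28), MYB177 in suspensor (-0.06) and MYB50 in endosperm (-0.48). The cause was not tested, and 0 of the 14 reached the threshold on the other probe set. Of the other calls that could be read on a second probe set, 32 did not change sign but lost their call, and 6 held. Calls of genes with 1 kept probe set could not be checked in this way. The other settings kept all counts within 1.5 times. With a replicate block, 30 genes differed by the F test against 29, and 158 of the 161 calls held.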
